A study of Mus musculus with 6 samples.

Results

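Purine and pyrimidine metabolism enzymes make, recycle and break down the nucleotides from which RNA and DNA are built. The 41 genes described here were chosen by name for their role in these pathways, with no threshold on measured values, from the 22477 gene symbols of a mouse lung RNA-seq count table. They were placed in 5 groups by role, with 13 genes of de novo purine synthesis, 5 of de novo pyrimidine synthesis, 10 of deoxynucleotide supply, 7 of salvage and 6 of degradation. All 41 were in the table, and all 41 passed the filter on low counts that left 18027 genes for testing.

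In de novo synthesis a purine ring is built step by step on phosphoribosyl pyrophosphate (PRPP), whereas a pyrimidine ring is made first and then joined to PRPP. Salvage enzymes recover free bases and nucleosides, and ribonucleotide reductase turns ribonucleotides into the deoxynucleotides used for DNA, which dividing cells need most during S phase. Degradation of purines leads to uric acid through xanthine dehydrogenase. Genes of these pathways are well known to be transcribed with MYC activity and with the cell cycle.

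Small cell lung cancer is modelled in RPM mice by Cre recombinase, which deletes Rb1 and Trp53 and turns on MycT58A, a Myc allele whose protein is more stable. RNA was compared between 4 RPM lung tumors and 2 normal lungs, each from its own mouse. The labels give the genotype Rb1/Trp53/MycT58A and the treatment Ad5CGRP-Cre, an adenovirus whose Cre is driven by a promoter active in neuroendocrine cells, to every sample, normal lung included. In the protocol an initial cohort received 25000000 PFU of this virus through the trachea at 8 weeks of age, but the labels do not say whether these mice belonged to it, how old they were at sampling or whether any of them received the drugs or vehicle that the protocol describes. Libraries are called by the numbers in their labels, tumors 3 to 6 and normal lungs 1 and 2.

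Total counts lay between 54735438 and 70817440 in tumors, and were 91049413 and 99122494 in normal lungs. All 11 neuroendocrine markers were higher in tumors, with summed levels of 977 to 1555 CPM, against 23.3 and 31.8 CPM in normal lungs. CPM give a count as a part of its library's scaled total, on a common scale. Myc was at 70.2 to 175 CPM in tumors, against 7.90 and 18.2 CPM in normal lungs. Rb1 was at 42.9 to 80.2 CPM in tumors, against 72.0 and 83.5 CPM in normal lungs, and Trp53 at 9.42 to 15.8 CPM, against 21.5 and 22.6 CPM. Counts over a whole gene include exons that Cre leaves in place, and tumor tissue holds host cells, so these Rb1 and Trp53 values do not test the deletion. The structural RNAs Rn45s, Rpph1 and Rmrp, which have no poly(A) tail, took 5.46% to 13.9% of counts in tumors and 0.238% and 0.550% in normal lungs. CPM values are taken over a total that includes these RNAs, multiplied by the library's TMM scaling factor. That factor was 0.931 to 1.103 in tumors and 0.993 and 1.018 in normal lungs. The part of the difference in structural RNAs in the results was not tested beyond the refit without such rows described in the closing section.

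Together the 41 genes took 0.596% to 0.628% of all counts in the tumors, against 0.254% and 0.252% in normal lungs. By the quasi-likelihood test of edgeR, with p-values adjusted over all 18027 genes and a threshold of 0.05, 27 of the 41 were higher in tumors, 9 were lower and 5 did not pass. This is 65.9% higher and 21.95% lower, beside 31.3% higher and 32.6% lower among all genes tested. The median log2 fold change was 1.68 over the 41 genes and 0.02 over all genes. In 28 of the 41 genes all 4 tumors lay above both normal lungs, and in 10 all 4 lay below both, where 37.4% and 39.8% of all genes tested did so. Because these are bulk samples, fewer cells of a type and less RNA per cell cannot be told apart.

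**Figure D1:**
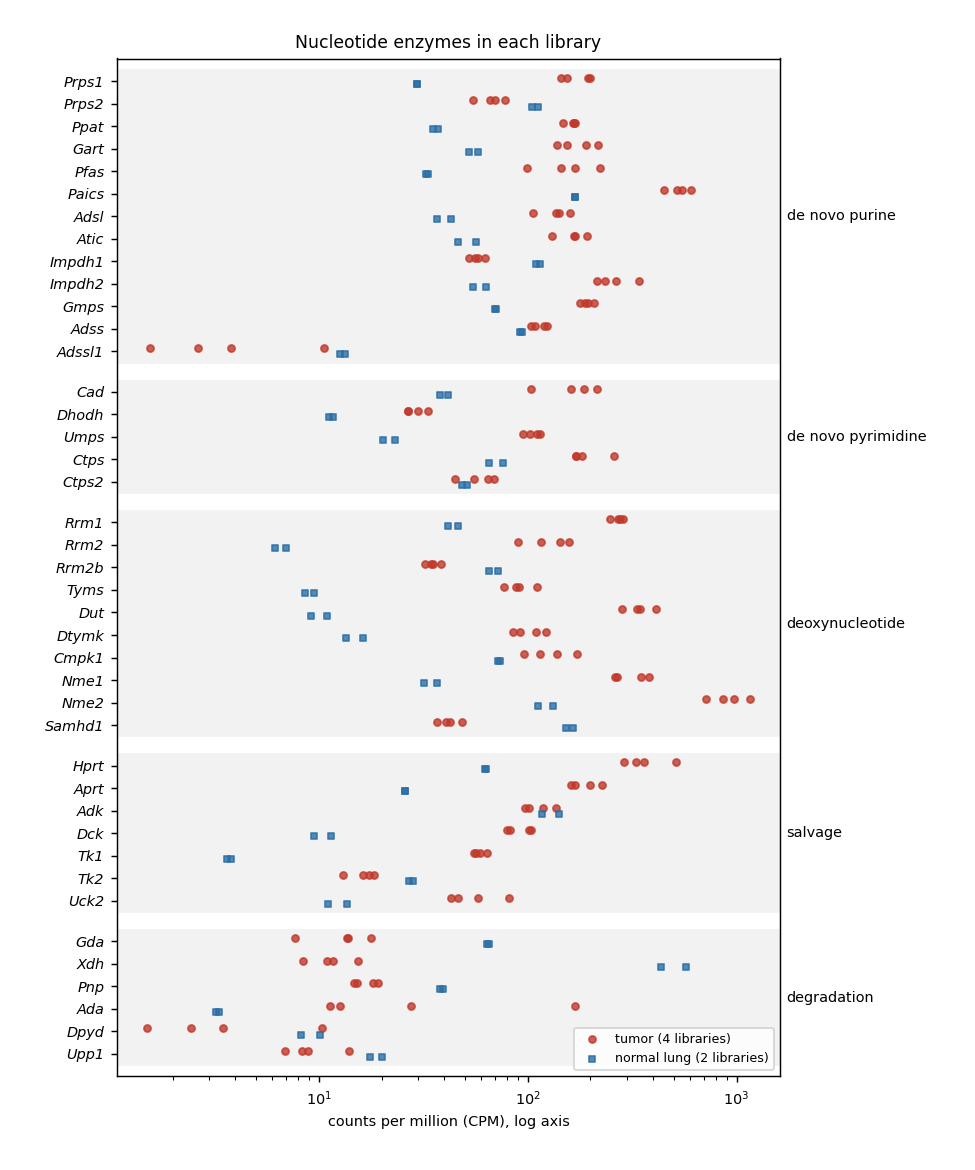
Level of each of the 41 enzyme genes in each library, in CPM on a log axis, grouped by role, with red circles for the 4 tumors and blue squares for the 2 normal lungs. The tumors lie to the right of both normal lungs in 28 genes and to the left of both in 10, among them Xdh at 8.40 to 15.4 CPM in tumors and 435 and 570.2 CPM in normal lungs.

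The change differed by group. Higher genes made up 69.2% of the de novo purine, 80% of the de novo pyrimidine and 80% of the deoxynucleotide group. They made up 71.4% of salvage and 16.7% of degradation genes, beside 31.3% of all genes tested. Lower genes made up 15.4%, 0%, 20%, 14.3% and 66.7% of these groups in the same order, beside 32.6% of all genes tested. Deoxynucleotide genes had the largest median log2 fold change of the 5 groups, 2.86, and their summed level was 2126 to 2842 CPM in tumors, against 535 and 549 CPM in normal lungs. Of this sum, Nme2 alone held 712 to 1159 CPM in tumors, against 112 and 132 CPM in normal lungs. Nme1 held 261 to 382 CPM, against 32.0 and 36.9 CPM. Salvage genes followed with a median of 2.57, then de novo purine genes with 1.66 and de novo pyrimidine genes with 1.47. Degradation genes had a median of -1.12, and their summed level was 58.1 to 219.9 CPM in tumors, against 571 and 703 CPM in normal lungs. That sum was mostly single genes. Xdh alone held 570.2 of the 703 CPM in normal lung 1 and 435 of the 571 CPM in normal lung 2. Ada, a higher gene, held 168 of the 219.9 CPM in tumor 6. Along with these group changes, 15 of 15 proliferation markers were higher in tumors, with sums of 3366 to 4236 CPM against 337 and 373 CPM in normal lungs. The part of proliferating cell numbers in the results was not tested.

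**Figure D2:**
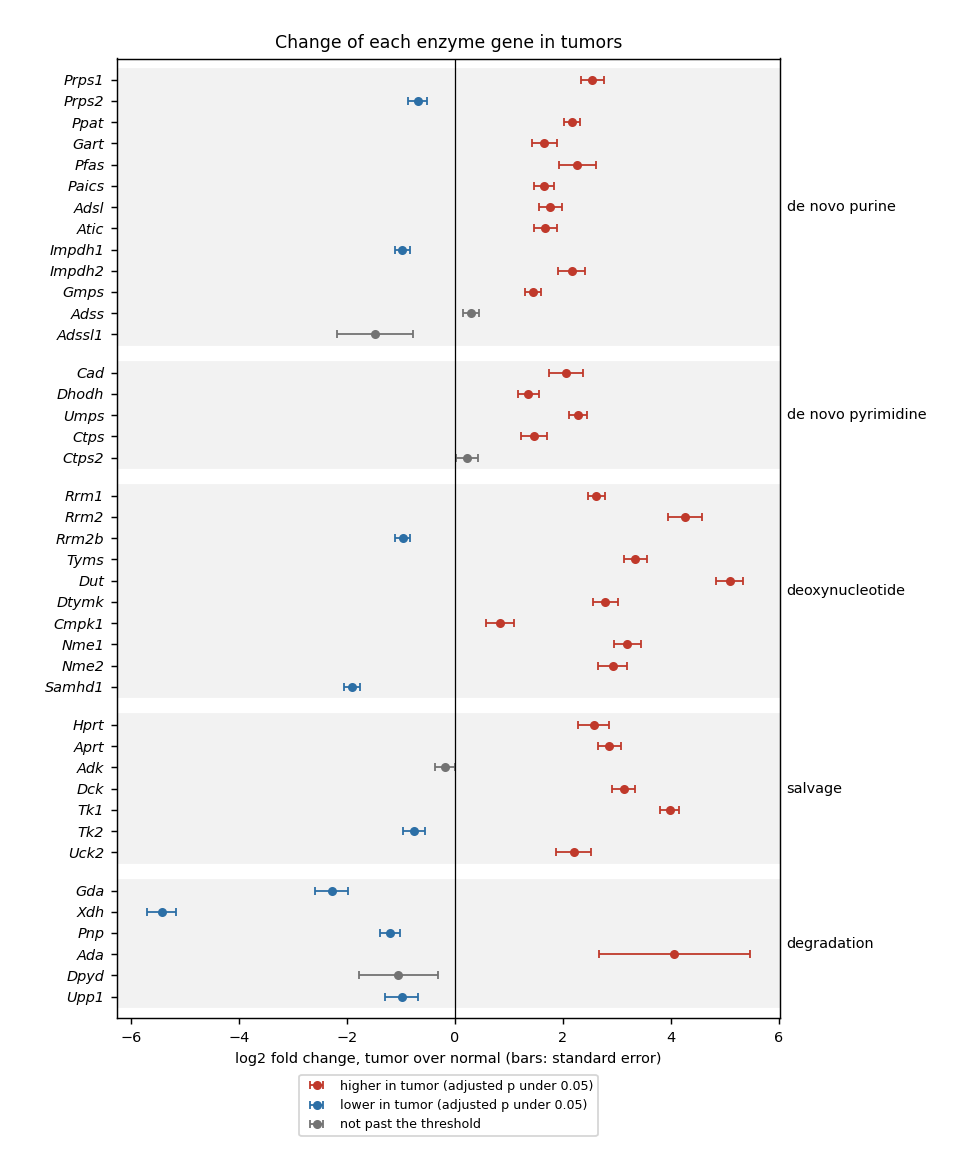
Log2 fold change of each gene, tumor over normal lung, with its standard error as a bar, colored red where higher, blue where lower and gray where the adjusted p did not pass 0.05. Most genes of the first 4 groups lie right of 0, led by Dut at 5.09, whereas 5 of the 6 degradation genes lie left of it, 4 of them past the threshold, led by Xdh at -5.44.

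De novo purine synthesis starts with PRPP synthetase, encoded by Prps1 and Prps2, and its first committed step is run by the amidotransferase Ppat. Of the 13 genes, 9 were higher in tumors, 2 were lower and 2 did not pass. Ppat was at 169, 168, 148 and 164 CPM in tumors 3, 4, 5 and 6, against 35.1 and 37.1 CPM in normal lungs 1 and 2. The tumors were close to each other and all stood well above normal lung, with a log2 fold change of 2.17 ± 0.15 (SE) and an adjusted p of 7.47e-05. Prps1 was at 195, 199.6, 144 and 155 CPM in tumors, against 29.6 and 29.7 CPM in normal lungs. Every tumor was several times higher, with a log2 fold change of 2.55 ± 0.21 (adjusted p = 0.000138). A near-identical copy, Prps1l3, was at 115 to 127 CPM in tumors and 60.0 and 67.2 CPM in normal lungs, so reads may be split between them. With the rows of Prps1 and its copies summed, the log2 fold change was 1.66 (adjusted p = 0.00031).

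Prps2 moved the other way, at 54.9, 69.6, 78.0 and 66.4 CPM in tumors, against 112 and 105 CPM in normal lungs. All tumors lay below both normal lungs, with a log2 fold change of -0.69 ± 0.17 and an adjusted p of 0.011. The call did not hold when either normal lung was left out, with an adjusted p of 0.0855 without normal lung 1 and 0.0525 without normal lung 2.

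The middle of the purine pathway was higher at every step. Gart, which carries 3 of the steps on a single protein, averaged 175 ± 35.4 CPM in tumors and 55.4 ± 3.84 CPM in normal lungs (SD, n = 4 and 2), a log2 fold change of 1.66 ± 0.23 (adjusted p = 0.00102). Pfas, a glutamine-using step that falls between those of Gart, averaged 159 ± 50.8 CPM in tumors and 33.0 ± 0.582 CPM in normal lungs, a log2 fold change of 2.27 ± 0.34 (adjusted p = 0.00137). Its tumors were spread from 99.7 CPM in tumor 3 to 222 CPM in tumor 6, all above normal lung. Paics, a bifunctional enzyme further along, averaged 531 ± 66.2 CPM in tumors and 169 ± 0.257 CPM in normal lungs, which is 3.15-fold higher (adjusted p = 0.00045). Adsl, the lyase that acts both here and in AMP synthesis, was 3.41-fold higher, at 107 to 160.0 CPM in tumors against 37.0 and 43.2 CPM in normal lungs (adjusted p = 0.000548). Atic, which closes the ring to give IMP, was 3.20-fold higher, at 132 to 193 CPM against 46.4 and 56.8 CPM (adjusted p = 0.000649). Ppat and Paics are neighbors read in opposite directions whose exons overlap by 272 bases in GRCm38, and reads from that stretch cannot be assigned without strand.

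At IMP the pathway branches to GMP and AMP. On the GMP side IMP dehydrogenase, the rate-limiting step, is encoded by Impdh1 and Impdh2, whose transcripts went in opposite directions. Impdh2 was at 234, 342, 215 and 264 CPM in tumors, against 54.9 and 63.0 CPM in normal lungs. Impdh1 was at 57.7, 62.4, 52.2 and 56.3 CPM in tumors, against 109.6 and 115 CPM in normal lungs. No tumor overlapped normal lung in either gene. The log2 fold change was 2.16 ± 0.24 for Impdh2 (adjusted p = 0.000442) and -0.97 ± 0.13 for Impdh1 (adjusted p = 0.000962). Gmps, which completes GMP, was at 178, 208, 194 and 187 CPM in tumors, against 69.7 and 70.6 CPM in normal lungs. Its tumors were nearly alike, at a log2 fold change of 1.45 ± 0.14 (adjusted p = 0.000287).

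On the AMP side neither synthase passed the test. Adss, the widely expressed adenylosuccinate synthase, was at 120.2, 124, 103 and 108 CPM in tumors, against 91.7 and 94.1 CPM in normal lungs. All tumors were above normal lung, but by little, and the log2 fold change of 0.30 ± 0.14 did not pass (adjusted p = 0.11). It passed with upper quartile scaling (0.42, adjusted p = 0.0412) and with a stricter filter of 1 CPM in every library of a group (0.38, adjusted p = 0.0433). Adssl1, the muscle isozyme, was at 2.65, 3.81, 1.56 and 10.6 CPM in tumors, against 12.6 and 13.3 CPM in normal lungs. Tumor 6 stood close to normal lung and the other tumors well below it, and the log2 fold change of -1.48 ± 0.70 did not pass (adjusted p = 0.105). Without tumor 6 it was -2.19 (adjusted p = 0.00561), and with limma voom on all libraries -1.87 (adjusted p = 0.0194). Of 10 heart and skeletal muscle markers, 9 were tested and 6 passed as lower (66.7%, beside 32.6% of all genes tested). All 10 summed to 556 CPM in tumor 6, against 305 and 719 CPM in normal lungs. The other tumors were at 8.01 to 47.0 CPM. Different genes made up these sums. Acta1, skeletal muscle actin, was at 321 CPM in tumor 6 and at most 1.97 CPM in any other library. In tumor 6 Ckm was at 146 CPM and Mb at 82.7 CPM. The heart gene Myh7 was at 0.105 CPM in tumor 6, against 169 and 140 CPM in normal lungs 1 and 2. Another heart gene, Myl2, was near 0 in every library, with counts of at most 1 in tumors and 0 and 4 in normal lungs 1 and 2. It was not tested. The part of muscle tissue in the Adssl1 values was not tested.

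The proximal promoters of these genes can be read beside their levels. Of the 41 genes, 37 had a RefSeq window (GRCm38.p6) from 250 bases before to 50 after the start of the gene. The letters CACGTG, the canonical E-box that MYC with MAX can bind and which reads the same on both strands, were found in the window of 6 of the 25 higher genes with a window (24.0%). Counts use the first window listed for each gene. The letters were in 0 of 7 lower genes and 0 of 5 that did not pass, and so in 6 of all 37 (16.2%). Of the 27025 windows of all genes, tested here or not, 7.2% held them. Groups of 7 and 5 genes are too small to tell 0 from that share. The 6 sites, and a further one in a second window of Nme1, are shown with 15 bases on each side, on the strand of the gene, with the E-box in capitals.
Paics, chr5:76951084-76951119 (+), 203 bases before the start: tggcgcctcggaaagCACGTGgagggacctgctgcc
Atic, chr1:71557134-71557169 (+), 7 bases before the start: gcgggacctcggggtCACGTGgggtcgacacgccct
Impdh2, chr9:108560311-108560346 (+), 110 bases before the start: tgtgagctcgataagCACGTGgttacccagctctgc
Tyms, chr5:30073666-30073701 (-), 61 bases before the start: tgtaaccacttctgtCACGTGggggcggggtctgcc
Dtymk, chr1:93802062-93802097 (-), 148 bases before the start: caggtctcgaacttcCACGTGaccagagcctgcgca
Nme1, chr11:93968270-93968305 (-), 18 bases before the start: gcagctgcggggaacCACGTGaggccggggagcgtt
Nme1, second window, chr11:93968034-93968069 (-), 29 bases before that start: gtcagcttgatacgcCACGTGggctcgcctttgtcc
The sites lie in 3 de novo purine genes and 3 deoxynucleotide genes, all 6 of which passed the test as higher. A match is a description of the letters in the window, and no binding was measured.

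Because the IMP dehydrogenase genes moved in opposite directions, the 250 bases before each start are given whole, from RefSeq GRCm38.p6 and on the strand of the gene, with the E-box of Impdh2 in capitals. None of the windows listed for Impdh1 holds these letters. The windows of Prps1, Rrm2 and Tk1, the higher genes of other pairs that moved in opposite directions, do not hold them either. Nor does that of Dut, the gene with the largest rise.
Impdh2, chr9:108560186-108560435 (+): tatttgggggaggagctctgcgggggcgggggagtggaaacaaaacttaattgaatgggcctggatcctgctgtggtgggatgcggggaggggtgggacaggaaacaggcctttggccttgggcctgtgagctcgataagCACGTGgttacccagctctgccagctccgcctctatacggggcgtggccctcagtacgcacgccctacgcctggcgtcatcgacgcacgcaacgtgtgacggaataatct
Impdh1, chr6:29216365-29216614 (-): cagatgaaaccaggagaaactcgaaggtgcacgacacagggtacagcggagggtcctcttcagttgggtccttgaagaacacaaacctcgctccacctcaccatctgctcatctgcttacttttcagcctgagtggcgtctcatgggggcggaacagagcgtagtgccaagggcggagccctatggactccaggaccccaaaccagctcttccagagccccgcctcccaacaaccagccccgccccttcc
A second pair of letter strings, from the E2F family of cell cycle factors, was searched on both strands. TTTCCCGC was found in 2 of the 37 windows (5.4%), those of Ppat and Prps2, beside 1.1% of all windows, and TTTGGCGC in 0 of 37, beside 0.5%.

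De novo pyrimidine synthesis uses Cad for its first 3 steps, the mitochondrial enzyme Dhodh for the next, and Umps to form UMP. Of the 5 genes, 4 were higher in tumors and Ctps2 did not pass. Umps was at 95.1, 111, 103 and 114 CPM in tumors, against 20.3 and 23.3 CPM in normal lungs, a log2 fold change of 2.28 ± 0.17 (adjusted p = 9.23e-05). Cad was at 104, 186, 161 and 215 CPM in tumors, against 37.9 and 41.7 CPM in normal lungs, a log2 fold change of 2.07 ± 0.31 (adjusted p = 0.0015). Dhodh was at 26.8, 29.8, 26.9 and 33.6 CPM in tumors, against 11.2 and 11.7 CPM in normal lungs, a log2 fold change of 1.36 ± 0.19 (adjusted p = 0.00113). In these 3 genes no tumor overlapped normal lung, and tumor 6 was highest and tumor 3 lowest.

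CTP synthase, the step from UTP to CTP, is encoded by Ctps and Ctps2. Ctps was at 183, 259, 170.3 and 170.0 CPM in tumors, against 65.4 and 76.0 CPM in normal lungs, a log2 fold change of 1.47 ± 0.24 (adjusted p = 0.00186). Ctps2 was at 64.7, 44.7, 68.9 and 55.3 CPM in tumors, against 51.5 and 48.6 CPM in normal lungs. Ctps was above normal lung in every tumor, while for Ctps2 tumor 4 lay below both normal lungs and the others above them. The log2 fold change of Ctps2 was 0.22 ± 0.20 (adjusted p = 0.368).

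Among the deoxynucleotide genes, 8 were higher in tumors and 2 were lower. Dut, the dUTPase that keeps uracil out of DNA, showed the largest rise of the 41 genes, at 413, 346, 333 and 284 CPM in tumors against 9.23 and 10.9 CPM in normal lungs. Its log2 fold change was 5.09 ± 0.25, or 34.1-fold (adjusted p = 3.47e-05). Tyms, thymidylate synthase, was at 111, 88.0, 91.2 and 77.2 CPM in tumors against 8.61 and 9.46 CPM in normal lungs, a log2 fold change of 3.34 ± 0.21 (adjusted p = 6.08e-05). Dtymk, which phosphorylates its product dTMP, was 6.90-fold higher, at 85.1 to 123 CPM in tumors against 13.5 and 16.2 CPM in normal lungs (adjusted p = 0.000134). In these 3 thymidylate genes the tumors were 6.90-fold to 34.1-fold above normal lung, with no overlap.

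Ribonucleotide reductase pairs the large subunit Rrm1 with a small subunit, either the S phase form Rrm2 or Rrm2b, a p53 target that serves resting and DNA-damaged cells. Rrm1 was at 276, 269, 288 and 249 CPM in tumors, against 41.5 and 46.4 CPM in normal lungs. Rrm2 was at 143, 90.0, 159 and 116 CPM in tumors, against 6.21 and 7.00 CPM in normal lungs. Rrm2b was at 35.2, 38.7, 34.3 and 32.4 CPM in tumors, against 72.0 and 65.6 CPM in normal lungs. Rrm1 and Rrm2 were thus above normal lung in all tumors and Rrm2b below it in all. The log2 fold change was 2.62 ± 0.16 for Rrm1 (adjusted p = 5.39e-05), 4.26 ± 0.31 for Rrm2 (adjusted p = 9e-05) and -0.97 ± 0.14 for Rrm2b (adjusted p = 0.00121).

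Nme1 and Nme2 encode nucleoside diphosphate kinases, which make triphosphates from diphosphates. Nme2 was at 1159, 863, 712 and 972 CPM in tumors against 112 and 132 CPM in normal lungs, a log2 fold change of 2.93 ± 0.27 (adjusted p = 0.000214). Nme1 was at 382, 348, 261 and 268 CPM in tumors against 32.0 and 36.9 CPM in normal lungs, a log2 fold change of 3.19 ± 0.25 (adjusted p = 0.000117). Both stood far above normal lung in each tumor, but their sequences are much alike and both share exon bases with the readthrough gene Gm20390 in GRCm38, so the split between them is uncertain. Cmpk1, the UMP and CMP kinase, was 1.78-fold higher, at 173, 138, 114 and 96.0 CPM in tumors against 74.03 and 72.4 CPM in normal lungs (adjusted p = 0.0257). That call did not hold without normal lung 1 (adjusted p = 0.126) or without normal lung 2 (adjusted p = 0.134).

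Samhd1, a hydrolase that takes deoxynucleoside triphosphates apart and restricts viruses in myeloid cells, was lower. It was at 40.8, 42.5, 48.6 and 36.8 CPM in tumors, against 166 and 152 CPM in normal lungs. The tumors formed a narrow range far below normal lung, with a log2 fold change of -1.91 ± 0.15 (adjusted p = 0.000123). Of 10 macrophage and monocyte markers, 6 were lower in tumors and 4 did not pass, with 3 overlapping between the groups. This is 60% lower, beside 32.6% of all genes tested. The 10 markers summed to 265 to 1187 CPM in tumors, against 4989 and 5425 CPM in normal lungs. Most of each sum was Lyz2 alone, at 176 to 1034 CPM in tumors and 4555 and 4954 CPM in normal lungs. The part of macrophages and monocytes in the Samhd1 result was not tested.

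Of the 7 salvage genes, 5 were higher in tumors, Tk2 was lower and Adk did not pass. Tk1, the cytosolic thymidine kinase of S phase, was at 63.6, 59.1, 55.3 and 56.7 CPM in tumors, against 3.65 and 3.79 CPM in normal lungs. Its log2 fold change was 3.98 ± 0.18, or 15.8-fold (adjusted p = 2.95e-05). Tk2, the mitochondrial thymidine kinase, was at 17.4, 16.2, 18.4 and 13.1 CPM in tumors, against 27.0 and 28.1 CPM in normal lungs. All tumors were below normal lung, with a log2 fold change of -0.76 ± 0.20 (adjusted p = 0.0148), a call that did not hold without normal lung 1 (adjusted p = 0.0855) or normal lung 2 (adjusted p = 0.101).

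Dck, which phosphorylates deoxycytidine and activates several nucleoside drugs, was at 104, 81.9, 102 and 79.5 CPM in tumors, against 9.53 and 11.4 CPM in normal lungs. Its log2 fold change was 3.13 ± 0.21 (adjusted p = 7.47e-05), with the tumors close together and far above normal lung. The purine base salvage enzymes were also higher. Aprt, which uses adenine, was at 228, 198, 161 and 168 CPM in tumors, against 25.9 and 26.0 CPM in normal lungs, a log2 fold change of 2.86 ± 0.21 (adjusted p = 9.94e-05). Hprt, which uses hypoxanthine and guanine and often serves as a reference gene, was 5.94-fold higher, at 514, 362, 289.8 and 332 CPM in tumors against 63.4 and 62.7 CPM in normal lungs (adjusted p = 0.000408).

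Uck2, the uridine and cytidine kinase, was 4.61-fold higher, at 42.9 to 81.5 CPM in tumors against 11.1 and 13.7 CPM in normal lungs (adjusted p = 0.00125). Adk, adenosine kinase, was at 137, 102, 97.7 and 118 CPM in tumors, against 141 and 117 CPM in normal lungs. The groups overlapped for Adk, with a log2 fold change of -0.18 ± 0.19 (adjusted p = 0.42).

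Degradation was the one group in which lower genes were the majority, with 4 of 6 lower in tumors, 1 higher and 1 that did not pass. This is 66.7% lower and 16.7% higher, beside 32.6% and 31.3% of all genes tested. Xdh, xanthine dehydrogenase, fell the most of the 41 genes, at 15.4, 10.9, 8.40 and 11.7 CPM in tumors against 570.2 and 435 CPM in normal lungs. It was 43.3-fold lower, with a log2 fold change of -5.44 ± 0.27 (adjusted p = 3.44e-05). Gda, guanine deaminase, which makes the xanthine that Xdh uses, was at 17.8, 13.8, 7.70 and 13.7 CPM in tumors, against 65.2 and 63.9 CPM in normal lungs. Every tumor was well below normal lung, with a log2 fold change of -2.29 ± 0.31 (adjusted p = 0.000869). Pnp, the phosphorylase that frees purine bases from nucleosides, was at 15.3, 14.7, 19.3 and 18.2 CPM in tumors, against 38.2 and 39.2 CPM in normal lungs. It too was lower in all tumors, at -1.20 ± 0.18 on the log2 scale (adjusted p = 0.00154).

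Most markers of normal lung cells were lower in the same tumors, where 32.6% of all genes tested passed as lower. All 10 endothelial markers passed as lower, with sums of 62.2 to 167 CPM in tumors against 4371 and 4859 CPM in normal lungs. All 8 alveolar type 2 markers did, with sums of 59.3 to 783 CPM against 22438 and 24799 CPM, and all 7 alveolar type 1 markers, with sums of 146 to 174 CPM against 7140 and 8013 CPM. None of these markers was at 0 in any tumor. Of the remaining marker lists, 5 of 6 club cell, 8 of 9 T and NK cell, 4 of 7 B and plasma cell, 3 of 5 neutrophil, 4 of 7 fibroblast and 5 of 7 smooth muscle and pericyte markers passed as lower in tumors. In the last list the pericyte gene Rgs5 passed as higher, at 65.6 to 134 CPM in tumors against 4.31 and 4.28 CPM in normal lungs, a log2 fold change of 4.53 ± 0.38 (adjusted p = 0.000152). The part of any of these cell types in the lower levels of Xdh, Gda and Pnp was not tested.

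The pyrimidine-degrading genes had log2 fold changes smaller in size than those of Xdh and Gda and near that of Pnp (-1.20). Upp1, uridine phosphorylase, was at 8.34, 13.9, 8.87 and 6.93 CPM in tumors, against 17.7 and 20.1 CPM in normal lungs, a log2 fold change of -0.99 ± 0.31 (adjusted p = 0.0285). That call was lost without normal lung 1 (adjusted p = 0.098), normal lung 2 (0.148), tumor 3 (0.0616), tumor 5 (0.064) or tumor 6 (0.0556). Dpyd, dihydropyrimidine dehydrogenase, was at 3.502, 10.3, 2.45 and 1.51 CPM in tumors, against 8.24 and 10.1 CPM in normal lungs. Tumor 4 was at the level of normal lung and the others below it, and the log2 fold change of -1.05 ± 0.73 did not pass (adjusted p = 0.244). Without tumor 4 it was -1.88 (adjusted p = 0.0089).

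Ada, adenosine deaminase, was the exception in its group. It was at 12.6, 27.6, 11.4 and 168 CPM in tumors, against 3.21 and 3.33 CPM in normal lungs. All tumors were above normal lung, and tumor 6 stood several times above the other tumors. The log2 fold change was 4.07 ± 1.40 (adjusted p = 0.0392), and 2.47 without tumor 6 (adjusted p = 0.00606). The call did not hold without normal lung 1 (adjusted p = 0.164), without normal lung 2 (adjusted p = 0.155) or with limma voom (adjusted p = 0.11). Ada is known to be abundant in the stratified epithelium of the mouse upper digestive tract. The 5 stratified epithelium markers, which did not pass the test, summed to 1227 CPM in tumor 6 and 0.157 to 1.06 CPM in the other tumors, against 1.27 and 2.28 CPM in normal lungs. Krt4 and Krt13 were at 645 and 555 CPM in tumor 6 and at most 0.183 and 0.302 CPM in any other library, and Krt13, Krt5 and Trp63 were at 0 in at least 1 tumor. The part of such tissue in the Ada value of tumor 6 was not tested. In the other 3 tumors, where these markers were near 0, Ada was at 11.4 to 27.6 CPM.

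**Figure D3:**
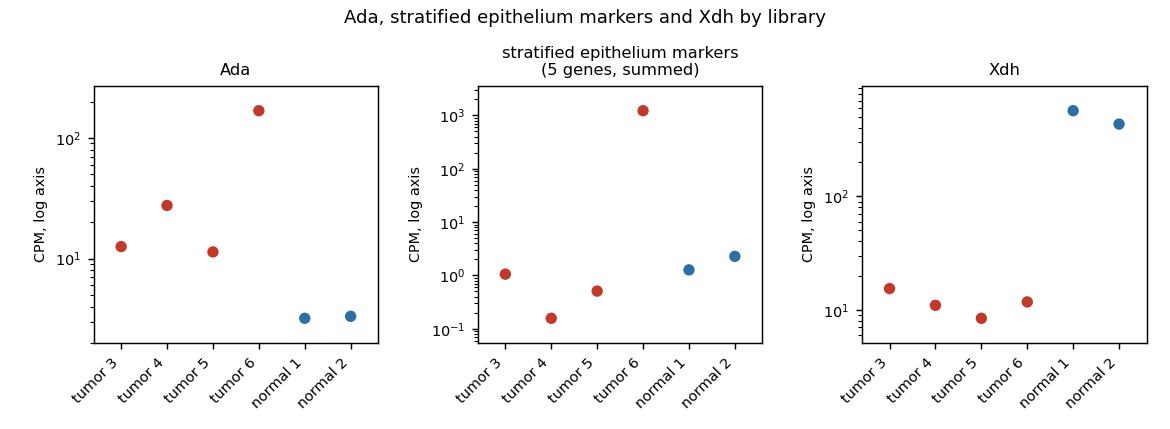
Ada, the summed level of 5 stratified epithelium markers and Xdh in each library, in CPM on log axes, with tumors in red and normal lungs in blue. Ada and the markers are both highest in tumor 6, at 168 and 1227 CPM, whereas Xdh is 8.40 to 15.4 CPM in all 4 tumors against 435 and 570.2 CPM in normal lungs.

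For 7 steps the list holds a pair of isozymes, so their balance can be read within each library, free of library scaling. Shares were taken per kilobase of transcript, as the part of the first gene in the sum of the pair. Rrm2b made up 10.6%, 17.1%, 9.43% and 11.8% of the small subunit pair in tumors, against 84.8% and 81.8% in normal lungs. Tk2 made up 14.04%, 14.1%, 16.6% and 12.2% of the thymidine kinase pair in tumors, against 81.6% in each normal lung. Both pairs were thus led by the S phase form in every tumor and by the other form in normal lung. Impdh1 made up 15.0%, 11.5%, 14.8% and 13.2% of its pair in tumors, against 58.8% and 56.6% in normal lungs. Prps2 made up 13.02%, 15.6%, 22.4% and 18.5% of its pair in tumors, against 66.9% and 65.2% in normal lungs. In these 2 pairs as well, the gene that led in normal lung was the lesser one in every tumor, but for Prps2 this lead depends on leaving out the near copies of Prps1. With those added at the length of Prps1, Prps2 made up 8.43% to 13.3% in tumors, against 40.01% and 36.5% in normal lungs, and led in neither group.

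The other pairs kept their leading gene. Ctps2 made up 12.2% to 24.6% of its pair in tumors, against 38.9% and 34.0% in normal lungs. Adssl1 made up 2.25% to 12.9% of its pair in tumors, against 17.4% and 17.7% in normal lungs, with tumor 6 again nearest to normal lung. Nme1 made up 8.07% to 11.4% of its pair in tumors, against 8.33% and 8.16% in normal lungs, and the groups overlapped. This low share depends on the longest coding transcripts used, 3181 bases for Nme1 and 1012 for Nme2. Their counts in tumor 3 were 25630 and 77744.

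As a log2 ratio of counts, the change of balance was -5.20 for Rrm2b over Rrm2, -4.75 for Tk2 over Tk1, -3.24 for Prps2 over Prps1 and -3.12 for Impdh1 over Impdh2. It was -2.14 for Adssl1 over Adss, -1.25 for Ctps2 over Ctps and 0.27 for Nme1 over Nme2. With 4 tumors and 2 normal lungs an exact two-sided permutation test has 15 regroupings and cannot go below p = 0.0667, so none of the 7 pairs could pass 0.05. That smallest value was reached by the pairs of Impdh1, Prps2, Rrm2b, Ctps2 and Tk2 (0.0933 after adjustment over the 7 pairs), whereas the exact p was 0.133 for Adssl1 over Adss (adjusted 0.156) and 0.333 for Nme1 over Nme2 (adjusted 0.333). With the near copies of Prps1 added to it, the Prps2 difference was -2.36.

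**Figure D4:**
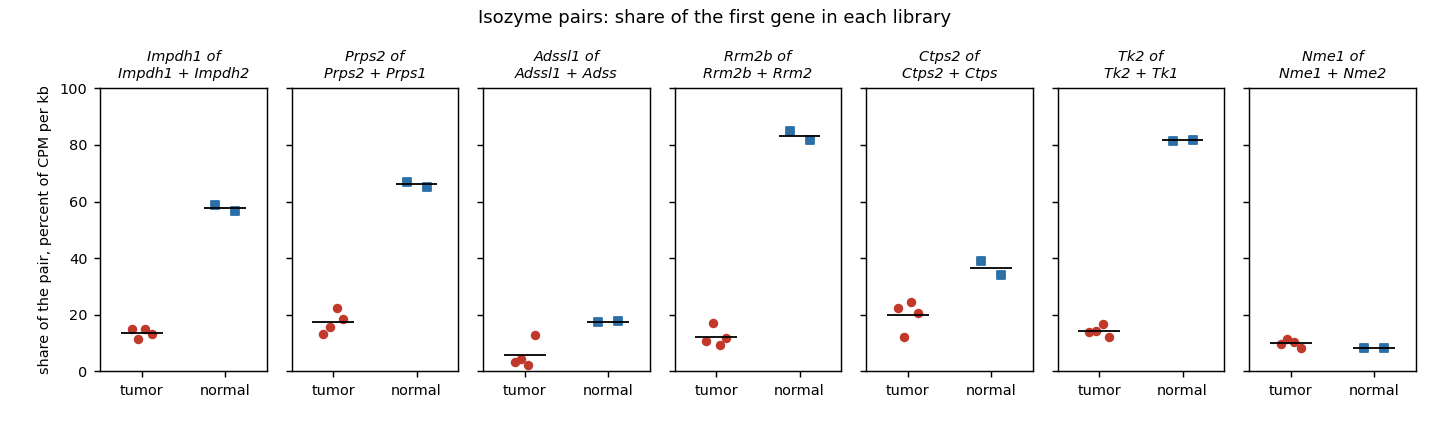
Share of the first gene in each of 7 isozyme pairs, in percent of the pair's CPM per kilobase, for each tumor (red, left) and each normal lung (blue, right), with a line at the mean. Rrm2b averages 12.2% in tumors and 83.3% in normal lungs and Tk2 averages 14.2% and 81.6%, while Nme1 averages 9.84% and 8.25%.

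Levels of different genes were compared per kilobase of the longest coding transcript. In tumors the order was led by Nme2 at a mean of 915 CPM per kb, then Hprt at 290.4, Aprt at 222, Paics at 214 and Dut at 176. In normal lungs Nme2 also came first, at 120.5 CPM per kb, but Xdh was second at 109, ahead of Adk at 71.0 and Paics at 68.0. Xdh was in place 39 of 41 in tumors, at 2.52 CPM per kb. Dut was in place 34 in normal lungs, at 5.17 CPM per kb, and Tk1 in place 39, at 2.58 CPM per kb. Impdh2 was in place 6 in tumors and place 9 in normal lungs, while Impdh1 was in place 28 in tumors and place 6 in normal lungs.

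Variation among the tumors was modest for most of the genes. The median coefficient of variation over the 4 tumors was 16.2% for the 41 genes, beside 20.0% for the 10037 genes with a mean tumor level of at least 10 CPM. Rrm1 and Ppat varied least, each at 6.03%, followed by Tk1 at 6.21% and Gmps at 6.63%. Ada varied most, at 138%, then Dpyd at 90.1% and Adssl1 at 87.1%. Next came Pfas and Upp1 at 32.0% each, Gda at 31.4%, Uck2 at 30.6% and Cad at 28.3%. Tumor 3 held the highest level of 14 genes and tumor 4 of 13, against 7 each for tumors 5 and 6. Tumor 5 held the lowest level of 17 genes, tumor 6 of 12, tumor 3 of 9 and tumor 4 of 3. No label separates the tumors, so these differences were given no test.

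**Figure D5:**
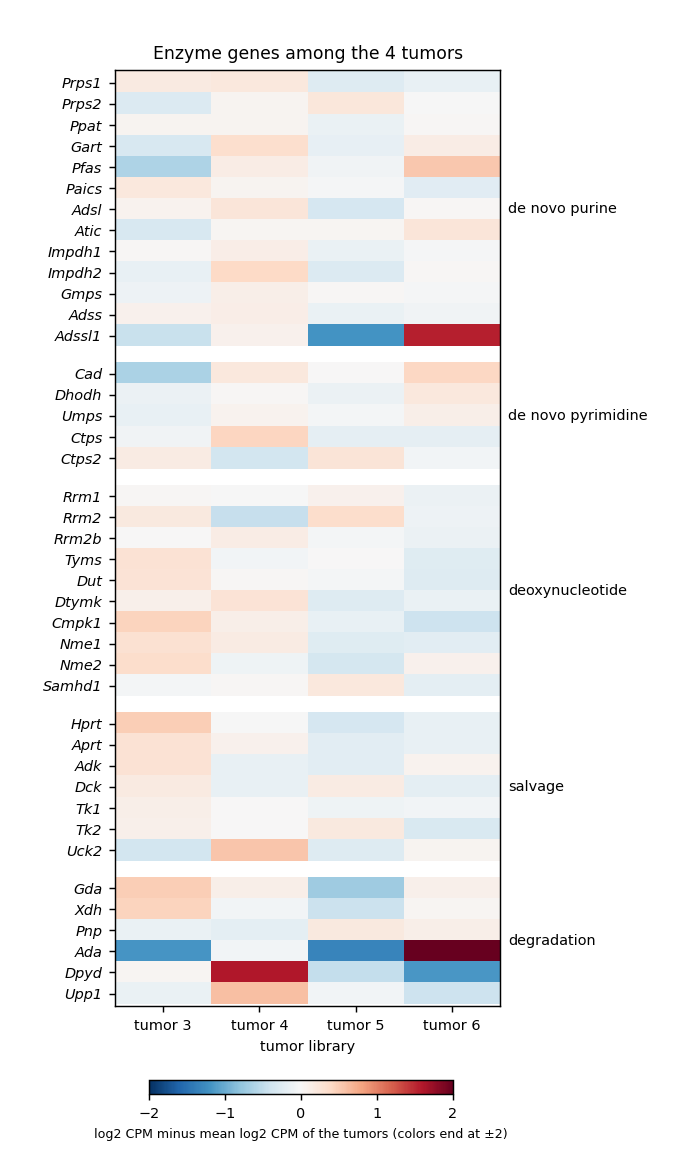
Level of each enzyme gene in each of the 4 tumors relative to the mean of the tumors, as a difference in log2 CPM, with red above and blue below the mean. Most cells are pale, and the strongest colors are those of Ada and Adssl1 in tumor 6, at 168 and 10.6 CPM, and Dpyd in tumor 4, at 10.3 CPM.

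Neighboring pathways moved less uniformly. Of 35 other nucleotide kinases, phosphatases and salvage genes, 19 were higher in tumors, 8 were lower and 8 did not pass. This is 54.3% higher and 22.9% lower, beside 31.3% and 32.6% of all genes tested. The median log2 fold change of the 35 genes was 0.74. The dCMP deaminase Dctd, which feeds thymidylate synthesis, was at 28.7, 42.3, 34.4 and 45.2 CPM in tumors against 0.488 and 0.896 CPM in normal lungs, a log2 fold change of 5.77 ± 0.42 (adjusted p = 9.02e-05). The diphosphate kinase Nme4 (4.46 ± 0.31) and the nucleotidase Nt5c2 (1.94 ± 0.16) were higher too. Entpd1, the surface enzyme CD39 that hydrolyzes extracellular ATP, was lower (-3.56 ± 0.23), as were the adenylate kinases Ak3 (-1.75 ± 0.13) and Ak7, a gene of motile cilia (-4.86 ± 0.53). Ciliated cell markers, 6 of 7 of them lower, summed to 36.6 to 92.6 CPM in tumors against 583 and 587 CPM in normal lungs, and their part in the Ak7 value was not tested.

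Among 8 other breakdown genes, 1 was higher, 1 was lower and 6 did not pass. These are 12.5% each way, beside 31.3% higher and 32.6% lower among all genes tested. Aox1, an oxidase related to Xdh, was lower at -4.70 ± 0.35 on the log2 scale, and thymidine phosphorylase, Tymp, was higher at 0.71 ± 0.19. Of 6 tested nucleoside transporters, Slc29a4 (5.26 ± 0.74) and Slc29a2 (3.69 ± 0.63) were higher, Slc29a3 (-1.04 ± 0.26) and Slc28a2 (-2.13 ± 0.55) were lower and 2 did not pass. With 33.3% higher and 33.3% lower, the transporters were near the shares among all genes tested.

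The supply of building blocks was uneven across pathways. Folate and one-carbon genes, which provide formyl and methyl groups for purines and thymidylate, had 10 of 15 higher and 1 lower, with a median log2 fold change of 2.49. Their shares were 66.7% higher and 6.67% lower, beside 31.3% and 32.6% of all genes tested. The serine synthesis gene Psat1 (4.17 ± 0.25) and mitochondrial Mthfd2 (4.18 ± 0.32) were among the higher genes.

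Genes of the pentose phosphate pathway, the source of ribose for PRPP, had 2 of 7 higher, 2 lower and 3 that did not pass, with a median of -0.10. At 28.6% each way, this was near the 31.3% higher and 32.6% lower of all genes tested. Pgls (1.46 ± 0.16) and Tkt (0.59 ± 0.16) were higher, and Pgd (-1.41 ± 0.23) and Taldo1 (-0.95 ± 0.20) were lower. Glutamine and aspartate genes, which supply ring nitrogen and carbon, had 5 of 7 higher (71.4%) and 1 lower (14.3%), with a median of 1.49. Gls2 (4.12 ± 0.33), a glutaminase, and asparagine synthetase Asns (2.38 ± 0.19) were higher, while glutamine synthetase, Glul, was lower (-2.33 ± 0.19), at 96.5 ± 13.03 CPM in tumors and 484 ± 97.3 CPM in normal lungs (SD, n = 4 and 2).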

How the data were processed

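Per the labels' protocols, tissue was flash-frozen and dissected, RNA was purified on columns, and poly(A) RNA was made into NEBNext Ultra II libraries. The deposited values were raw counts per gene symbol from TPMCalculator, as the authors' labels name it. The submitters' processing notes list STAR 2.5.4a, Trimmomatic 0.36 and Trim Galore, the mm9 build, and R 3.5.1 with DESeq2 1.22.2, without roles. Annotation and strand setting were not given in the sources used here, so reads of overlapping or near-identical genes cannot be told apart. Of the deposited counts from 1 to 10, 61.2% were even.

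Groups follow the labels' tissue type, with all samples in batch 1 and no replicate number shared between groups. The test was edgeR's quasi-likelihood test (version 4.0.16, R 4.3.3) with TMM scaling, the filter of edgeR by group (minimum count 10, minimum total 15) and tissue as the only term. Benjamini-Hochberg adjustment ran over 18027 genes, with a threshold of 0.05, and a standard error is the log2 fold change divided by the square root of F. P-values reflect the spread between these 6 mice, with a common biological coefficient of variation of 0.433. CPM use TMM-scaled library sizes. Counts of the 41 genes ran from 101 to 77744. No pair of libraries of a group agreed within sampling noise. Transcript lengths and overlaps came from GENCODE M21 (GRCm38), not the authors' annotation. Isozyme ratios used a pseudocount of 0.5.

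No threshold on values selected the 41 genes, but they, the other gene lists, the markers and the tests were chosen with earlier results of these data known. Every one of the 41 genes is accounted for. Acta1, Ckm, Mb, Lyz2, Krt4 and Krt13 were named after their values were seen. From each other list up to 3 genes a direction were named, those of smallest p. Some genes of that rule are not reported here. Alternatives were RLE and upper quartile factors, total counts only, no filter or a stricter one, DESeq2 1.42.0, limma voom (limma 3.58.1), halved counts, removal of non-coding and histone rows, and leaving out each library. Their effect is given in the closing section.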

Additional observations from a re-analysis of the deposited data

Results flagged for a closer look

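A library far from the other tumors was looked for in each of the 41 genes with Dixon's ratio, the gap to the nearest tumor over the range of the 4 tumors. It was past Dixon's 95% critical value in 2 of 41 genes, and chance gives about 5% of groups. Ada in tumor 6, at 168 CPM with the other tumors at 11.4 to 27.6 CPM, had a ratio of 0.896. Ctps in tumor 4, at 259 CPM with the other tumors at 170.0 to 183 CPM, had a ratio of 0.855.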

How the results depend on the processing

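None of the 41 genes changed direction under any of the 16 alternatives. The isozyme differences were recomputed only with a pseudocount of 5, without each library in turn and with near-copy rows summed. They kept their sign in each. DESeq2, RLE factors, total counts, no filter, halved counts, removal of non-coding and histone rows and the sum of near-copy rows, an alternative chosen after seeing the data, each changed 0 of the 41 calls. Leaving out a normal lung leaves a single one, assumed to vary like the tumors. The count of all genes higher was 5638, and 3373 to 5912 when each library was left out in turn. In the same refits, members higher numbered 25 to 27 and members lower 6 to 10. Lower de novo purine genes numbered 1 to 3 and lower salvage genes 0 to 1, with Tk2 not called without either normal lung (edgeR, unadjusted p under 0.05 for 1 gene without normal lung 1 and 0 without normal lung 2). The higher degradation gene, Ada, was not called without either normal lung, a range of 0 to 1, or with limma voom (0 genes, and 0 at an unadjusted p under 0.05, against 1 with DESeq2). Upper quartile scaling moved the median of all genes to 0.14 and no filter moved it to 0.12 (log2), beside 0.02. No paired analysis was possible because the tumors and normal lungs share no replicate number. The design has 2 normal lungs, and no alternative adds to them.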
